A study of Mus musculus with 5 samples.

Results

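Kupffer cell markers were followed in the transcriptomes of mouse liver tumours with or without overexpression of the transcription factor Prox1. The 10 genes, Clec4f, Vsig4, Timd4, Cd5l, Marco, Folr2, Adgre1, Csf1r, Cd163 and Id3, were chosen by name as markers of these cells and matched by symbol to 10 of the 55397 Ensembl genes in the deposited table. All 10 passed the filter for testing (a mean of at least 10 normalised counts over the libraries), among 17105 genes that did. Tumours were raised in female C57BL/6N mice injected at 8 weeks of age by hydrodynamic tail vein injection, which drives plasmid into hepatocytes. Both groups received Sleeping Beauty transposase under a CMV promoter, and Akt and NICD (the intracellular part of the NOTCH1 receptor) under an EF1a promoter, the NICD plasmid also carrying the rtTA activator. The groups differed in a further transposon, with a doxycycline-responsive Tre promoter ahead of FLAG-mmProx1-IRES-GFP in Prox1 OE (3 libraries) or of IRES-GFP alone in Control (2 libraries). All mice ate a 6.25% doxycycline diet from day 21, which switches the Tre promoter on between weeks 3 and 4 after injection. Tumours were dissected either a week into induction or when humane limits were met, and the labels do not say which applied to which library. RNA was taken from dissected tumour, so that it can include RNA of host cells such as macrophages.

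Kupffer cells are the resident macrophages of the liver. They lie in the lumen of the sinusoids, where they clear bacteria, complement-coated particles, aged red cells and free haemoglobin from portal blood. Their survival depends on the receptor encoded by Csf1r, and their identity is held by signals from neighbouring endothelial cells, stellate cells and hepatocytes that act through regulators such as LXR-alpha (Nr1h3), SpiC and Id3. When they are lost, monocytes can enter the niche and acquire the same programme, with Timd4 appearing late.

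Libraries held 48740863 to 56629477 recovered reads. Prox1 itself had 4153 and 4664 normalised counts in Control and 48090, 11113 and 8231 in Prox1 OE, so the groups did not overlap (adjusted p 0.061 by limma). The labels call the samples transformed hepatocytes, and the hepatocyte gene Alb was at 480678 to 2594529 normalised counts, while all 17 genes of a pan-macrophage list were also detected in every library. No label ties libraries to separate animals, so the p-values measure the spread between these samples. In RNA from bulk tissue, more cells of a type cannot be told apart from more RNA per cell.

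Mean levels of the Kupffer markers were higher in Prox1 OE than in Control. All 10 had a log2 fold change above 0, from 0.43 for Adgre1 to 1.58 for Clec4f, with a median of 0.98 beside -0.02 over all genes tested. Clec4f, Cd5l, Folr2, Vsig4 and Id3 rose (limma, Benjamini-Hochberg adjusted p under 0.05), which is 5 of 10, where 17.1% of all genes tested were called higher. No member was called lower, where 16.2% of all genes were, and the count was also 0 at an unadjusted p under 0.05, with edgeR and with DESeq2. For 8 of the 10, the lowest Prox1 OE value exceeded the highest Control value, a pattern seen for 30.9% of all genes tested (and for 32.4% in the lower direction). Marco and Adgre1 were the members whose groups overlapped.

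**Figure D1:**
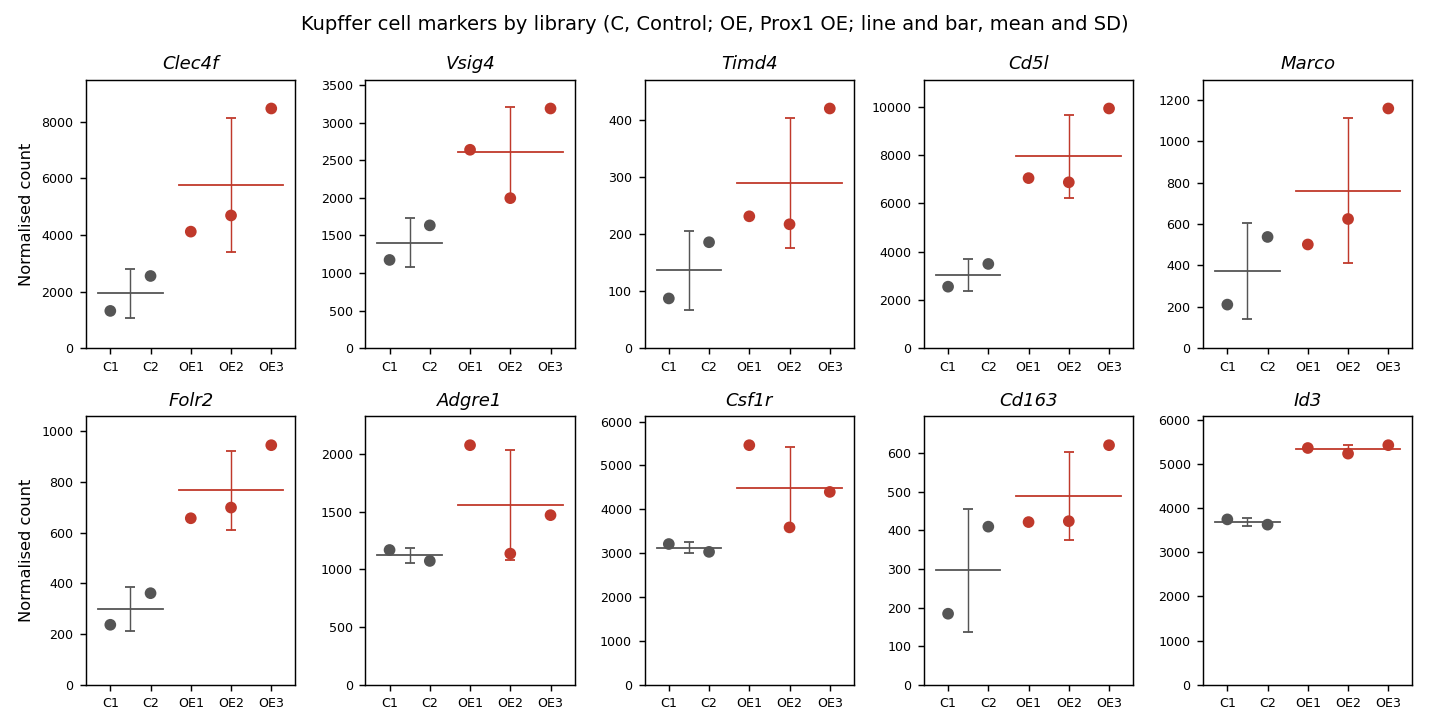
Normalised counts (y axis, linear from 0) of each Kupffer marker in each library (x axis: C1 and C2, Control replicates; OE1 to OE3, Prox1 OE replicates). Points are libraries, horizontal lines group means and bars SDs (n = 2 and n = 3); Control replicate 1 was the lowest of the libraries for 7 genes and Prox1 OE replicate 3 the highest for 8.

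The size of these differences depended on the Control libraries, which stood apart from each other for most members. Marco was 2.56 times, Cd163 2.22 times, Timd4 2.13 times and Clec4f 1.94 times as high in Control replicate 2 as in replicate 1, while Adgre1, Csf1r and Id3 differed between them by ratios of 0.919 to 0.968. Without Control replicate 1 the median log2 fold change of the members was 0.56, and without Control replicate 2 it was 1.5. The median over all genes tested was -0.01 in both fits. Without Control replicate 1 only the call of Cd5l held among the members, and fewer of all genes were called as well. Either fit leaves a lone Control library, whose spread is assumed to be that of the other group.

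Clec4f (ENSMUSG00000014542, chr6:83644542-83656187, minus strand) encodes a galactose-binding C-type lectin that in mice is a defining surface marker of Kupffer cells. It had 1315 and 2551 normalised counts in Control and 4119, 4690 and 8473 in Prox1 OE. All Prox1 OE libraries were higher, with replicate 3 far above the other two. The means were 1933 ± 873 (SD, n = 2) and 5761 ± 2366 (SD, n = 3), a 2.98-fold difference. The log2 fold change of 1.58 (SE 0.36) passed the test (adjusted p 0.016 by limma), although not without Control replicate 1 (1.10) or in limma without the trend.

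Cd5l (ENSMUSG00000015854, chr3:87357881-87371073, plus strand) encodes AIM, a scavenger-like protein that macrophages secrete into blood. Its values were 2546 and 3489 normalised counts in Control and 7046, 6873 and 9932 in Prox1 OE. The lowest Prox1 OE library was 1.97 times the highest Control library, the widest gap among the members. Its log2 fold change was 1.39 (SE 0.20, adjusted p 0.0037 by limma), and Cd5l was called in 16 of 16 alternative analyses.

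Folr2 (ENSMUSG00000032725, chr7:101839988-101857194, minus strand), the beta folate receptor of tissue-resident macrophages, had 237 and 361 normalised counts in Control and 656, 699 and 944 in Prox1 OE. The groups lay well apart, with a lowest Prox1 OE value 1.82 times the highest Control value. The log2 fold change was 1.37 (SE 0.24, adjusted p 0.0061 by limma), and its call was lost in 1 of 16 alternatives, without Control replicate 1 (1.07).

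Vsig4 (ENSMUSG00000044206, chrX:96247203-96293438, minus strand), the complement receptor that captures C3b-coated particles from blood, had 1173 and 1633 normalised counts in Control and 2639, 1995 and 3188 in Prox1 OE. The groups did not overlap, and replicate 2 was the lowest Prox1 OE library. The log2 fold change of 0.89 (SE 0.22) was called (adjusted p 0.022 by limma). It was 0.65 and not called without Control replicate 1, 0.46 and not called when scaled by total counts, and not called by limma without the trend.

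The promoters of 8 of the 10 members were matched in the RefSeq table (GRCm38, the sequence of mm10), and those of Adgre1 and Csf1r were not. Stretches upstream of the start are shown for 4 genes, Cd5l, Vsig4 and Clec4f as examples among the 5 that rose, and Marco because its window held both sets of letters searched. Folr2 and Id3, which also rose, are not shown, and neither window of Folr2 held a match. The letters were those of PU.1, the factor encoded by Spi1 that macrophage genes commonly depend on, and of RBPJ, the DNA-binding partner of NICD. Capitals mark the letters GAGGAA (PU.1 core) or TGGGAA (RBPJ core) on either strand, so that TTCCTC and TTCCCA are the same letters read from the other strand. The stretches run 5′ to 3′ on the strand of the gene, at chr3:87357631-87357880 (plus strand) for Cd5l, chrX:96293439-96293688 (minus) for Vsig4, chr1:120505025-120505274 (minus) for Marco and chr6:83656188-83656366 (minus) for Clec4f.
Cd5l: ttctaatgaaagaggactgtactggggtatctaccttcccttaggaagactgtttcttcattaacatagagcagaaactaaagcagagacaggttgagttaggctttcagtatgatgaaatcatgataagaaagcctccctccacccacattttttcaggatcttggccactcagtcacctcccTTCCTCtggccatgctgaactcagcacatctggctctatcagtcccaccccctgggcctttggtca
Vsig4: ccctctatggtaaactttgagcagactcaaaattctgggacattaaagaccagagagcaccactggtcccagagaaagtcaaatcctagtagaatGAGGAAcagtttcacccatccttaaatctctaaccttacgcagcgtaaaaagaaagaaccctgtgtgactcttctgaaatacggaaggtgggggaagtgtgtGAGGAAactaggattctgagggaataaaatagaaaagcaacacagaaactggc
Marco: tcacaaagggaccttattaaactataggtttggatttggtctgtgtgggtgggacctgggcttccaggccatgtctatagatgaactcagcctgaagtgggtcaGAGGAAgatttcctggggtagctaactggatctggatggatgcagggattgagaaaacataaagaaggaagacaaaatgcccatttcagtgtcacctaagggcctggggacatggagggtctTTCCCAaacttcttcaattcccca
Clec4f: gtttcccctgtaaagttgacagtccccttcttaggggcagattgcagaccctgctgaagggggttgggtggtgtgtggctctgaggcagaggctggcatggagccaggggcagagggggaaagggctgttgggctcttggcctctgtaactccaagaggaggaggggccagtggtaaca
In the full windows of 300 bases, from 250 before to 50 after the start, the PU.1 core was found for 4 of 8 members (Cd5l, Vsig4, Marco and Id3) and in 28.3% of all 32851 promoter windows. The RBPJ core was found for 2 of 8 members (Clec4f, outside the stretch shown, and Marco) and in 25.6% of all windows. No pair of matches overlapped, and a match is a description of letters, not of binding.

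Timd4, Marco and Cd163 complete the scavenging receptors, and none of them passed the test. Timd4 (ENSMUSG00000055546, chr11:46810800-46844332, plus strand), a phosphatidylserine receptor for apoptotic cells and a marker of long-established Kupffer cells, had 87.1 and 186 normalised counts in Control and 231, 217 and 420 in Prox1 OE. Its groups lay apart by a factor of 1.17, and the log2 fold change was 1.11 (SE 0.40, adjusted p 0.067 by limma). Marco (ENSMUSG00000026390, chr1:120474538-120505024, minus strand), a class A scavenger receptor for bacteria, had 210 and 537 normalised counts in Control and 501, 624 and 1159 in Prox1 OE. Control replicate 2 was above Prox1 OE replicate 1, and the log2 fold change was 1.08 (SE 0.46, adjusted p 0.11 by limma). Cd163 (ENSMUSG00000008845, chr6:124304656-124330527, plus strand), the receptor for haemoglobin bound to haptoglobin, had 184 and 409 normalised counts in Control and 421, 424 and 620 in Prox1 OE. Control replicate 2 lay just under the lowest Prox1 OE value, which was 1.03 times as high, and the log2 fold change was 0.80 (SE 0.34, adjusted p 0.11 by limma). Without Control replicate 2 all 3 were called, with log2 fold changes of 1.65, 1.76 and 1.38, and without Control replicate 1 the values were 0.57, 0.41 and 0.23.

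Adgre1 and Csf1r are carried by macrophages and their precursors in general. Adgre1 (ENSMUSG00000004730, chr17:57358691-57483527, plus strand), which encodes the F4/80 antigen, had 1169 and 1074 normalised counts in Control and 2078, 1137 and 1471 in Prox1 OE. Prox1 OE replicate 2 was below Control replicate 1, and the log2 fold change was 0.43 (SE 0.24, adjusted p 0.19 by limma). Csf1r (ENSMUSG00000024621), the receptor for the survival factors CSF1 and IL-34, had 3209 and 3030 normalised counts in Control and 5462, 3588 and 4397 in Prox1 OE. All Prox1 OE libraries were above both Control libraries, and the log2 fold change was 0.50 (SE 0.18, adjusted p 0.064 by limma). Csf1r was called in 4 of 16 alternatives and Adgre1 in 0 of 16, and under total counts their log2 fold changes were 0.07 and 0.0039. In both genes replicate 1 was the highest Prox1 OE library, where Clec4f, Vsig4, Timd4, Cd5l, Marco, Folr2 and Cd163 were all highest in replicate 3.

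Id3 (ENSMUSG00000007872, chr4:136143497-136145755, plus strand) encodes an inhibitor of helix-loop-helix transcription factors that Kupffer cells require during development, and many other cell types express it too. It had 3746 and 3627 normalised counts in Control and 5363, 5236 and 5427 in Prox1 OE. The libraries within each group were closer together than for any other member, with the highest Prox1 OE value 1.04 times the lowest. The log2 fold change was 0.53 (SE 0.10, adjusted p 0.0085 by limma). It was at 0.10 and not called when libraries were scaled by their total counts, and was also not called without either Control library (0.56 and 0.51).

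**Figure D2:**
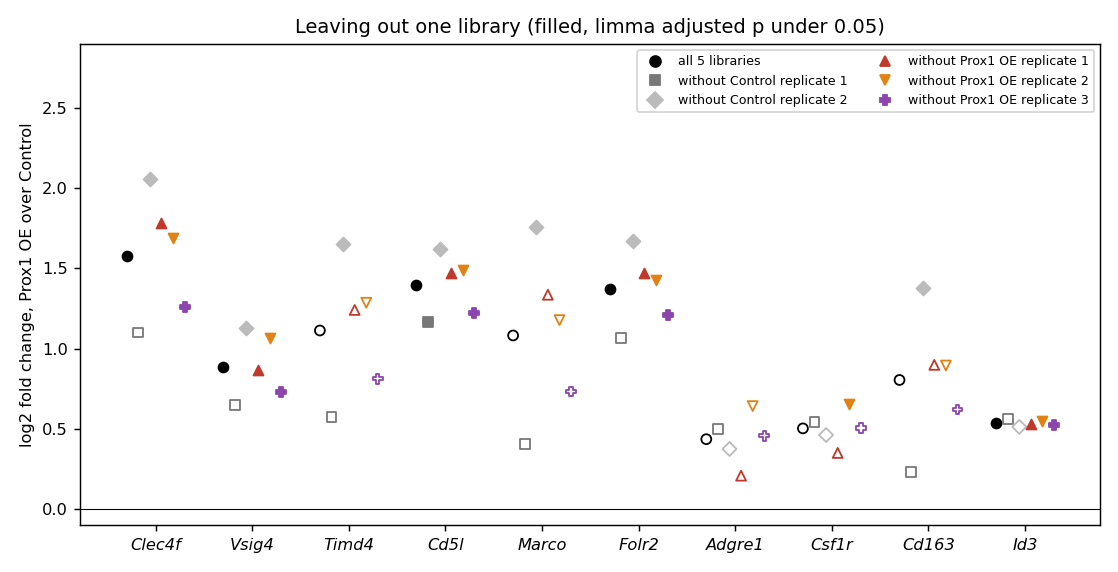
Log2 fold change of each Kupffer marker, Prox1 OE over Control (y axis), with all 5 libraries and without each library in turn (symbols). Filled symbols had a limma adjusted p under 0.05; all values are above 0, and those of Marco span 0.41 to 1.76 while those of Id3 span 0.51 to 0.56.

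Levels were compared between members per kilobase of annotated exon sequence. In Control the order ran from Id3 (2058 normalised counts per kilobase) and Cd5l (1482) through Vsig4 (946), Clec4f (782), Csf1r (540), Adgre1 (346), Marco (194) and Folr2 (193) to Timd4 (62.8) and Cd163 (54.3). The ranges of Vsig4 and Clec4f, of Clec4f and Csf1r, of Marco and Folr2, and of Timd4 and Cd163 overlapped, so that these neighbours were not separated. In Prox1 OE, Cd5l stood first (3905 normalised counts per kilobase), followed by Id3 (2983), Clec4f (2331) and Vsig4 (1757), and Timd4 (133) and Cd163 (89.4) were again last. Id3 and Clec4f, Clec4f and Vsig4, Folr2 and Adgre1, Adgre1 and Marco, and Timd4 and Cd163 had overlapping ranges in that group.

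Further Kupffer cell identity genes were taken as a second list of 9, of which 8 were tested. C6, Fcna, Kcna2, Clec1b, Il18bp and Slc16a9 rose, which is 6 of 8, where 17.1% of all genes tested were called higher. The count called lower was 0, where 16.2% of all genes were (0 also at an unadjusted p under 0.05, with edgeR and with DESeq2). The median log2 fold change was 1.08. The count fell from 6 to 4 without Prox1 OE replicates 2 or 3 and when scaled by total counts. Of all genes, 12.4%, 12.7% and 8.62% were higher there. Without Control replicate 1, where fewer of all genes were called, every call but that of C6 was lost. Those of Kcna2 and Slc16a9 were lost without Control replicate 2. C6, a complement component made by mouse Kupffer cells and also by hepatocytes, had the largest change, from 1130 ± 329 (SD, n = 2) to 3321 ± 851 (SD, n = 3) normalised counts and a log2 fold change of 1.55 (adjusted p 0.0051 by limma). Fcna, the ficolin A gene, went from 491 ± 281 (SD, n = 2) to 1216 ± 350 (SD, n = 3) normalised counts. Its log2 fold change was 1.40 (adjusted p 0.026 by limma). This call was lost without Control replicate 1, without Prox1 OE replicates 2 or 3, and in limma without the trend. Clec1b, which encodes the receptor CLEC-2, had a log2 fold change of 1.28 (adjusted p 0.013 by limma). Kcna2, a potassium channel gene, was low (33.1 and 88.1 normalised counts on average), with a log2 fold change of 1.38 whose call was lost in 7 of 16 alternatives. Il18bp, the inhibitor of interleukin 18, had 0.89 and Slc16a9, a carnitine transporter gene, 0.81 as log2 fold changes, the latter call being lost also without Control replicate 2 and under total counts. The iron exporter gene Slc40a1 (0.38) and Pcolce2 (0.15) were not called, and both were below 0 when scaled by total counts (-0.06 and -0.28). Cd209f had a mean of 4.17 normalised counts in Control and 2.63 in Prox1 OE and was under the filter. In all 8 tested genes Control replicate 1 was the lowest library and Prox1 OE replicate 3 the highest.

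**Figure D3:**
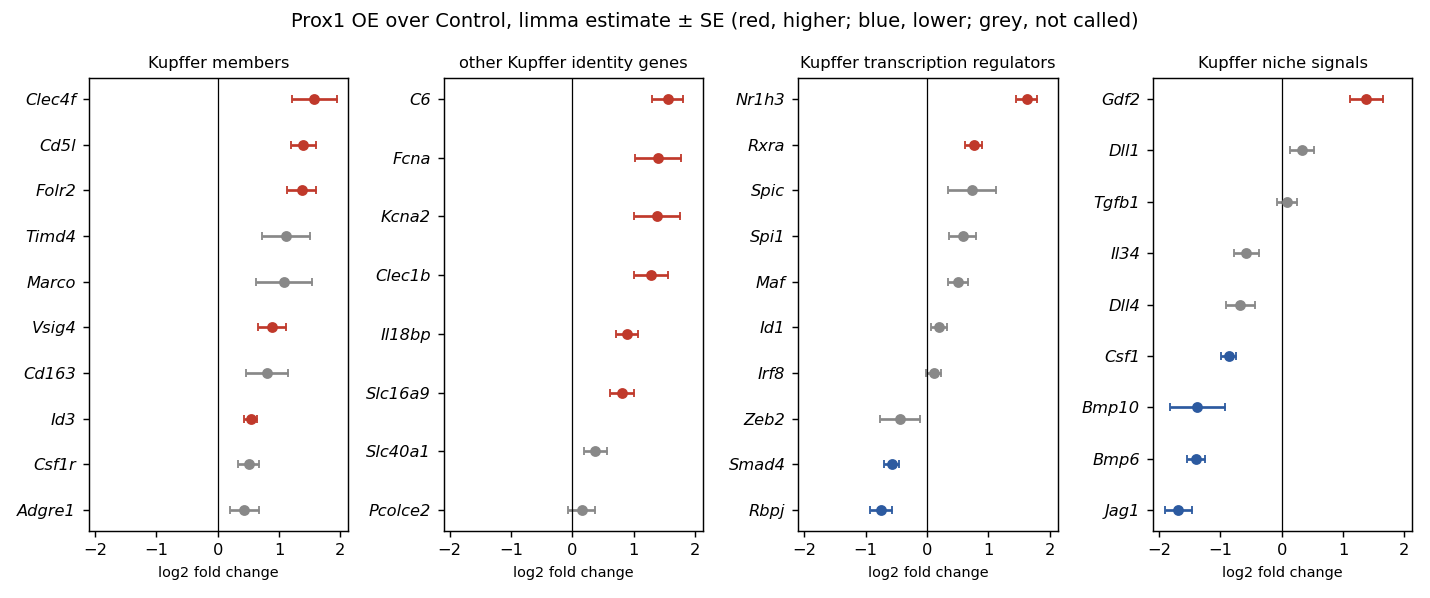
Limma log2 fold change with SE (x axis) of Prox1 OE over Control for the Kupffer markers and 3 lists around them: other identity genes, transcription regulators and niche signals. Red and blue points had an adjusted p under 0.05; the identity lists sit to the right of 0, while niche signals fall on both sides, from -1.68 for Jag1 to 1.38 for Gdf2.

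Of 10 transcription regulators that act in Kupffer cells, 2 were called higher and 2 lower, shares close to the 17.1% and 16.2% of all genes tested. Nr1h3, which encodes the oxysterol receptor LXR-alpha, went from 1886 ± 246 (SD, n = 2) to 5860 ± 1068 (SD, n = 3) normalised counts, a log2 fold change of 1.63 (adjusted p 0.0024 by limma). Its partner Rxra (0.76) also rose on the log2 scale, but not without Control replicate 1. Hepatocytes express Nr1h3 and Rxra as well. Spic, the lineage factor of iron-recycling macrophages, had 116 and 55.9 normalised counts in Control and 167, 93.2 and 159 in Prox1 OE, with overlapping groups (log2 fold change 0.74, adjusted p 0.18 by limma). Spi1 (0.58), Maf (0.50), Id1 (0.20), Irf8 (0.11) and Zeb2 (-0.44) were not called. Rbpj (-0.76), through which NOTCH signals reach the genome, and Smad4 (-0.58), a mediator of TGF-beta and BMP signals, were lower. The calls of Rbpj and Smad4 were lost when either Control library was left out, and that of Rbpj also without Prox1 OE replicate 2. Scaled by total counts, Rxra was not called (0.33), and Id1 (-0.23) and Irf8 (-0.32) changed sign.

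Genes for signals of the Kupffer cell niche were lower more often than higher. RNA of dissected tumour does not show which cells made them. Of 9 tested, 1 was called higher and 4 lower, where 17.1% and 16.2% of all genes were, with a median log2 fold change of -0.68. The count of lower calls was 6 with DESeq2 and also under total counts, which called 39.9% of all genes lower. Csf1, the ligand of the receptor encoded by Csf1r, had 1614 and 1432 normalised counts in Control and 819, 833 and 861 in Prox1 OE. All Prox1 OE libraries were below both Control libraries, and the log2 fold change was -0.86 (SE 0.12, adjusted p 0.0034 by limma). This call and that of Gdf2 were lost without Control replicate 1. Il34, the other ligand of that receptor, had 575 and 517 normalised counts in Control and 459, 312 and 341 in Prox1 OE, without a call (-0.58, adjusted p 0.062 by limma). The NOTCH ligand gene Jag1 (-1.68) and Bmp6 (-1.40), which encodes the endothelial signal for hepcidin, fell on the log2 scale. The related ligands of the receptor ALK1 moved in opposite directions. Gdf2 (BMP9), made by stellate cells, rose from 252 ± 77.0 (SD, n = 2) to 659 ± 177 (SD, n = 3) normalised counts with a log2 fold change of 1.38 (adjusted p 0.0092 by limma), while Bmp10 had 96.1 and 248 in Control and 46.0, 53.1 and 83.3 in Prox1 OE with a log2 fold change of -1.38 (adjusted p 0.049 by limma). The Bmp10 call was lost in 7 of 16 alternatives, without Control replicate 2 and without Prox1 OE replicates 1 or 2 among them. Dll4 (-0.68), Dll1 (0.33) and Tgfb1 (0.09) were not called, the last 2 being below 0 when scaled by total counts (-0.10 and -0.34), and Csf2 was at or under the level of 3 reads in every library.

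Genes that macrophages share across tissues were measured as a further list. Of the 17 pan-macrophage genes, 8 were called higher and 0 lower, where 17.1% and 16.2% of all genes tested were. The count lower was also 0 at an unadjusted p under 0.05, with edgeR and with DESeq2. Their median log2 fold change was 0.63. C1qa, C1qb, C1qc, Aif1, Mrc1, Tyrobp, Mertk and Fcer1g were the 8, led by C1qc (0.91), a chain of complement C1q. Lyz2, the lysozyme gene of myeloid cells and the gene of the list with most reads, had a log2 fold change of 0.70 and was not called (adjusted p 0.11 by limma), and its reads may be shared with its close copy Lyz1. The calls of Mrc1, Mertk and Fcer1g were lost without either Control library, where fewer of all genes were called, and that of Tyrobp without Control replicate 2. DESeq2 and the replicate block each gave 13 higher, where 20.3% and 15.5% of all genes were. Scaled by total counts, 4 of the 17 were called higher, where 8.62% of all genes were, and 13 of 17 remained above 0.

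Each member was set against the mean log2 level of the 17 pan-macrophage genes in the same library. Relative to these genes, Clec4f was 0.99, Cd5l 0.81, Folr2 0.78, Timd4 0.53, Marco 0.50, Vsig4 0.30 and Cd163 0.22 higher in Prox1 OE than in Control on the log2 scale. Adgre1 (-0.15), Csf1r (-0.08) and Id3 (-0.05) had differences near 0. The groups did not overlap on this relative scale for 1 of the 10 members, where 7.14% of all genes tested lay apart and higher and 61.2% apart and lower, so that this count is near the background. The member was Cd5l, whose relative log2 values were -0.01 and 0.63 in Control and 0.75, 1.10 and 1.5 in Prox1 OE. For the remaining members the relative values of the Control libraries reached into those of Prox1 OE, and no test was made on this scale.

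**Figure D4:**
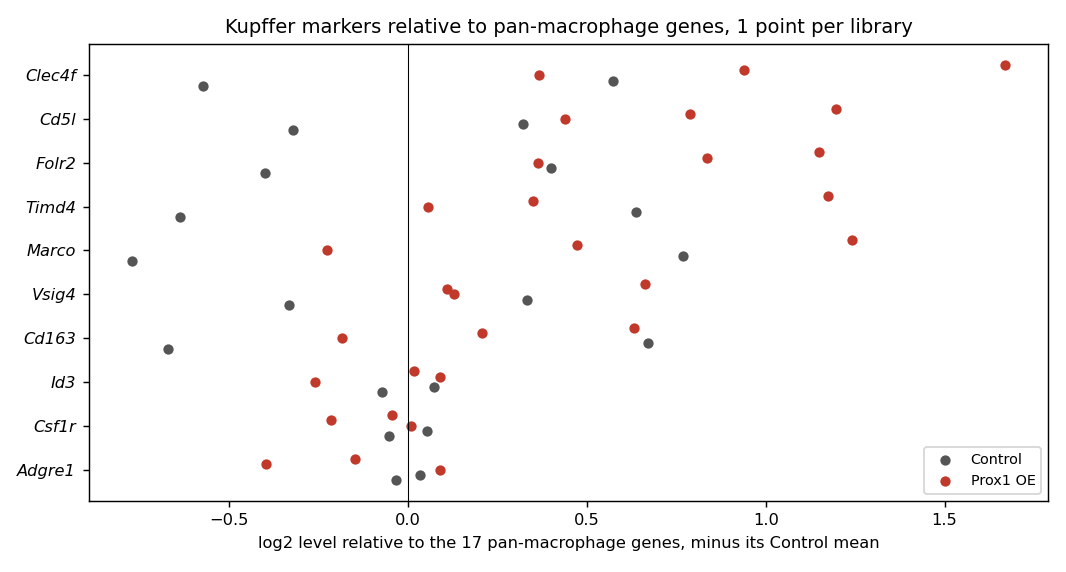
Level of each Kupffer marker relative to the mean of 17 pan-macrophage genes in the same library, on the log2 scale, minus its mean in Control (x axis), with 1 point per library. Clec4f, Cd5l and Folr2 have the largest relative differences, and Adgre1, Csf1r and Id3 lie around 0.

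Genes of recruited and lipid-laden macrophages were measured as separate lists. Of 9 monocyte markers, 0 were called higher and 2 lower, where 17.1% and 16.2% of all genes tested were. The count higher was also 0 at an unadjusted p under 0.05, with edgeR and with DESeq2. Their median log2 fold change was -0.15. Vcan (-1.58), which stromal cells also express, and Itgam (-0.73), the integrin CD11b, were lower, while Plac8 (-0.15) and the monocyte receptor gene Ccr2 (-0.11, named after its value was seen) were not called. The call of Itgam was lost without either Control library and without Prox1 OE replicates 2 or 3. Without Prox1 OE replicate 1 the count of lower calls was 4, with F13a1 and Chil3 added. Of 9 lipid-associated macrophage markers, Lpl (0.78) was called higher and Fabp5 (-0.62) and Cd9 (-0.59) lower. None of these 3 calls held without Control replicate 1, those of Fabp5 and Cd9 were also lost without Control replicate 2, and total counts gave 0 higher and 4 lower (39.9% of all genes were lower there). The replicate block called 3 higher, with Trem2 and Gpnmb added, and Trem2 was also called by DESeq2 and without Prox1 OE replicate 3. Spp1, which tumour cells of ductal type also make, had a log2 fold change of -0.34 (adjusted p 0.51 by limma).

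The order of the libraries separated the members. Clec4f, Vsig4, Timd4, Cd5l, Marco, Folr2 and Cd163 were lowest in Control replicate 1 and highest in Prox1 OE replicate 3. Of the pan-macrophage genes, 14 of 17 were instead lowest in Control replicate 2 and 14 of 17 highest in Prox1 OE replicate 1, as were Adgre1 and Csf1r. Among all 8376 genes tested with a log2 fold change above 0, 54.0% were lowest in Control replicate 1 and 52.5% highest in Prox1 OE replicate 3. The shares lowest in Control replicate 2 and highest in Prox1 OE replicate 1 were 28.7% and 24.7%. Prox1 itself was at 48090, 11113 and 8231 normalised counts in Prox1 OE replicates 1, 2 and 3. The members' median log2 difference from Control was 0.87, 0.70 and 1.45 in the same order. Whether the markers follow the Prox1 level was not tested.

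Marker lists of hepatocytes, sinusoidal endothelium and red cells were set beside the Kupffer markers. They were picked because their mean log2 levels were also higher in every Prox1 OE library than in both Control libraries. That shared direction is therefore not a result. The pan-macrophage, heme and iron, dendritic cell and lymphocyte lists met the same condition, as did the other Kupffer identity genes and the regulators. The mean log2 level of the 10 members was 9.52 and 10.1 in Control replicates 1 and 2 and 10.7, 10.5 and 11.1 in Prox1 OE replicates 1, 2 and 3. That of 8 hepatocyte markers was 15.2 and 15.8 in Control and 16.5, 16.7 and 17.2 in Prox1 OE. That of 12 sinusoidal endothelium markers was 9.42 and 9.97 in Control and 10.3, 10.3 and 10.8 in Prox1 OE. All 3 lists were thus lowest in Control replicate 1 and highest in Prox1 OE replicate 3. Hepatocyte markers were called higher for 6 of 8, led by Cyp2e1 (1.85) on the log2 scale, where 17.1% of all genes tested were called higher. Their summed levels were 744463 to 1190070 normalised counts in Control and 2277255 to 3526885 in Prox1 OE. The count of 6 fell to 4 without Prox1 OE replicate 3 and to 3 without Prox1 OE replicate 2, where 12.7% and 12.4% of all genes were higher. Without Control replicate 1, where fewer of all genes were called, every call but that of Hnf4a was lost. Those of Alb and Apob were lost without Control replicate 2. Sinusoidal endothelium markers were called higher for 6 of 12, also beside 17.1% of all genes, led by Clec4g (2.61). Their summed levels were 11358 to 15122 in Control and 17128 to 24760 in Prox1 OE. The general endothelial gene Cdh5 was at -0.33 and not called. The calls of Stab2, Gpr182 and Wnt2 were lost without Control replicate 1. Scaling by total counts gave 4 higher and 3 lower, where 8.62% and 39.9% of all genes were. The 3 lower were Lyve1 (-0.96), Cdh5 (-0.76) and Pecam1 (-0.70). Of 5 red cell genes, Alas2 (1.34) was called higher, though not without Control replicate 2, and all 5 were called by DESeq2 and had an unadjusted p under 0.05. Hbb-bs, a beta globin gene and the one with most reads, was not called (1.03, adjusted p 0.070 by limma) and its groups overlapped, but it was called without Prox1 OE replicate 2. The summed levels of the red cell genes were 4937 to 7492 in Control and 8407 to 17912 in Prox1 OE. No gene of these 3 lists was at 0 in any library. Cholangiocyte markers were lower for 5 of 5 tested, where 16.2% of all genes were. Among them were Sox9 (-1.21) and Cldn4 (-2.98, not called without Control replicate 2) on the log2 scale. Their summed levels were 29502 to 33204 normalised counts in Control and 9583 to 12333 in Prox1 OE. Whether the makeup of the dissected tissue had a part in the differences of the Kupffer markers was not tested.

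**Figure D5:**
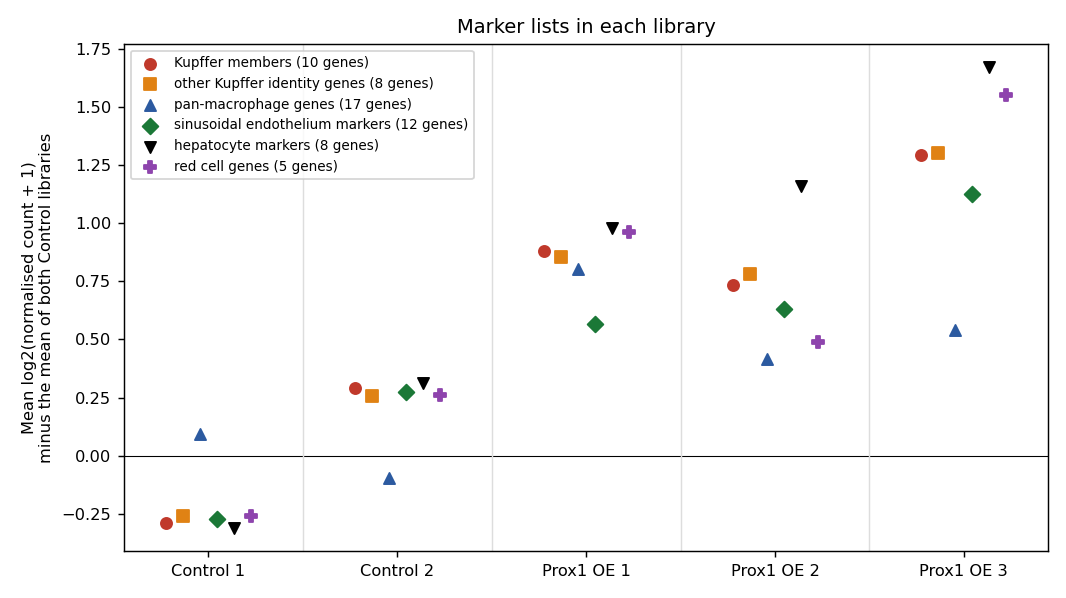
Mean log2(normalised count + 1) over the tested genes of 6 marker lists, minus the mean of both Control libraries (y axis), in each library (x axis). Kupffer, hepatocyte, endothelial and red cell lists are highest in Prox1 OE replicate 3, while the pan-macrophage list is highest in Prox1 OE replicate 1.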

How the data were processed

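RNA of dissected liver tumours was sequenced by the authors as pairs of 100 base reads from strand-preserving dUTP libraries, 2 Control and 3 Prox1 OE, and mapped to mm10 with STAR. How reads were counted is not given in the sources used here. The deposited signal is a normalised value for each gene, read counts divided by a DESeq2 size factor (per the labels and methods). All values (100%) were whole multiples, within 0.1, of what 1 read was worth in their library (0.822 to 1.18 normalised counts), which gave back whole reads. The level of 3 reads, 2.46 to 3.54 normalised counts, was used as a floor and covers counting error only. A second deposited table holds the fold changes and p-values of the authors' own comparison and was not used.

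Because the deposited values were normalised, groups were compared with limma 3.58.1 in R 4.3.3 (lmFit, eBayes with trend, no covariate) on log2(normalised count + 1), which understates changes of low genes. Genes with a mean of at least 10 were tested, two-sided, with Benjamini-Hochberg adjustment over all 17105 genes and a threshold of 0.05. Symbols, coordinates (mm10) and exon lengths came from GENCODE M21, which matched 99.5% of identifiers. The members and lists were chosen with earlier results of these data known, so lists are described by counts and medians without a set test. All members were named, as were the genes of the 3 Kupffer lists except one of the regulators, which is not reported here and was left out of its counts, and from other lists the gene with the highest mean and the called gene with the largest change in each direction. Others were named after their values were seen.

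Alternatives were other scalings (TMM, upper quartile, total count), pseudocounts of 0.1 and 10, no filter or a mean of at least 50, no trend, edgeR 4.0.16 and DESeq2 1.42.0 on recovered reads, a replicate block and each library left out. On simulated counts for 17105 genes, 200 of them changed, 81% of genes changed 4-fold and 55% of those changed 2-fold were recovered. Of the unchanged genes, 10 were called. The data had 5702 calls, so these rates need not hold for them. Replicates were distinct libraries (chi-square per degree of freedom of 40.9 to 127). With 2 Control libraries an exact permutation test of a single value cannot go below 0.1 and was not used.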

Additional observations from a re-analysis of the deposited data

How the results depend on the processing

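The log2 fold change of each of the 10 Kupffer markers was above 0 in all 16 alternatives, at the least 0.0039 for Adgre1 and 0.07 for Csf1r under total counts. Of 160 values, 142 kept their side of the threshold, 9 lost a call and 9 gained one. Scaling by total counts, which shifted the median of all genes to -0.44 and made 17.8% of calls higher in place of 51.4%, left 3 members called (Clec4f, Cd5l and Folr2) with a median of 0.55, which is 1.00 above that of all genes. Limma without the trend called 3 members (Cd5l, Folr2 and Id3), and the cause was not tested. With single libraries left out, 1 to 7 members were called higher, 0 lower, the median ran from 0.56 to 1.5 and the number of genes called from 1511 to 7494.

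Control and Prox1 OE share replicate numbers 1 and 2, with nothing in the labels to link them, and the deviations of same-numbered libraries were correlated at 0.14 and 0.02. A replicate block was fitted without Prox1 OE replicate 3, which has no partner. It called 5187 genes and 7 members, where 15.5% of all genes were higher. The members' median was 0.73, the same as when that library was left out with no block. DESeq2 also called 7 members. Of 480 counts over the other lists, 415 stayed within 1.5 times the count reported. A 0 that stayed at 0 was taken as kept, and many reported counts were 0. This figure therefore says little about counts above 0, several of which fell as described. The level of 3 reads was at most 3.54 normalised counts, below the lowest value of any member (87.1 for Timd4).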

Other observations

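Other immune cells were measured with lists of their own. Shares over all genes tested were 17.1% called higher and 16.2% called lower. Of 8 lymphocyte markers tested, Cd3g, Nkg7, Cd3d, Cd3e and Cd79b were called higher, with log2 fold changes of 1.54, 1.44, 1.2, 1.14 and 0.90. All of them were low, and the highest mean in Prox1 OE was 130 ± 8.77 normalised counts (SD, n = 3) for Cd79b, a subunit of the B cell receptor. Of 6 dendritic cell markers, Siglech (1.46) and Cd209a (1.23) were called higher, while Zbtb46 (-0.26), the one with most reads, was not called. Of 6 neutrophil markers tested, 0 were called in either direction by limma, edgeR or DESeq2, and 0 at an unadjusted p under 0.05, with Csf3r, the one with most reads, at 0.34 on the log2 scale (-0.09 under total counts). Every call among the lymphocyte and dendritic cell markers was lost when either Control library was left out. The lymphocyte count also fell to 0 without Prox1 OE replicate 2, to 1 without Prox1 OE replicate 3 and to 2 when scaled by total counts, and the dendritic count to 0 without Prox1 OE replicate 3 and under total counts, where 1 marker was called lower.

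Heme and iron handling is a main task of Kupffer cells that hepatocytes share. Of its 9 genes, 6 were called higher and 0 lower, where 17.1% and 16.2% of all genes tested were. The count lower was 1 at an unadjusted p under 0.05, 0 with edgeR and 1 with DESeq2. Ftl1, the ferritin light chain, went from 110957 ± 2971 (SD, n = 2) to 356389 ± 48879 (SD, n = 3) normalised counts with a log2 fold change of 1.68 (adjusted p 0.0041 by limma). Without Control replicate 1, where fewer of all genes were called, only the calls of Blvrb and Slc11a1 held, that of Ftl1 being among those lost. The calls of Fth1, Hpx and Slc11a1 were lost without Control replicate 2. Scaled by total counts, 3 were called higher and 1 lower (Hmox1, -0.78), where 8.62% and 39.9% of all genes were. Blvrb, Hpx, Slc11a1, Fth1 and Lrp1 had log2 fold changes of 1.44, 1.25, 0.84, 0.84 and 0.78. Hp, the haptoglobin gene, had 0.63 and was not called. Hmox1, which encodes the heme oxygenase that Kupffer cells use on red cell heme, had a log2 fold change of -0.35 (adjusted p 0.052 by limma) with both Control libraries above all Prox1 OE libraries. Among stellate cell markers, the quiescence gene Lrat (1.09) and Reln (0.55) were called higher, and Acta2 (-1.32), Col1a1 (-1.23) and Rgs5 (-0.77) lower. The call of Reln was lost in 6 of 16 alternatives (0.12 under total counts) and that of Rgs5 without Control replicate 1, and total counts gave 1 higher and 5 lower.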
